A study of Mus musculus with 8 samples.

Results

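The NMDA receptor subunits described here are Grin1, Grin2a, Grin2b, Grin2c, Grin2d and Grin3a, 6 of 27373 gene names on the array. Grin3b, also on the array, was counted among the receptor's partners. They were taken as every non-control probe that carries one of these names, which gave 13 of 41174 probes. Their transcripts were measured in whole hippocampus, dissected fresh and frozen, from 4 BTBR mice (the inbred strain BTBR T+ Itpr3tf/J) and 4 B6 mice (C57BL/6J). All 8 mice were male, 5 months old and without drug treatment. BTBR carries its own strain alleles throughout the genome, tufted (Itpr3tf) among them, so a difference between these strains cannot be tied to 1 allele. Cy3-labeled copies of the total RNA were read on Agilent single-color arrays, with 1 array for each sample. Arrays are named here by strain and replicate number. The replicates numbered 1 and 2 shared slide 1, and those numbered 3 and 4 shared slide 2, in both strains. Nothing in the labels gives an animal number, so p-values measure the spread between these samples.

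The NMDA receptor is a glutamate-gated cation channel that opens only when glutamate and a co-agonist, glycine or D-serine, are bound and when depolarization has removed the magnesium ion that blocks its pore. Each receptor combines obligatory GluN1 subunits, encoded by Grin1, with GluN2 subunits (Grin2a to Grin2d) or GluN3 subunits (Grin3a, Grin3b). Calcium that enters through it starts the long-term changes of synaptic strength for which hippocampal CA1 synapses are best known. In the forebrain GluN2B prevails early and GluN2A is added during postnatal maturation.

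The oligonucleotide that stands for each subunit decides what was read. Each was present as 1 spot of 60 bases. Coordinates are in mm9, all sites lie on the minus strand, and the sequences are those of the array, read 5′ to 3′. The single Grin1 probe (chr2:25151568-25151627) and the 2 Grin2b probes at chr6:135682925-135682984 (A_52_P248920) and chr6:135679813-135679823 (A_51_P265765, of which the array annotation places only 11 bases) are shown whole, as the oligonucleotides behind the Grin1 values and behind 2 of the 5 sets of Grin2b values.
Grin1 A_52_P69292: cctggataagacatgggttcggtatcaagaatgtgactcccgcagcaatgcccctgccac
Grin2b A_52_P248920: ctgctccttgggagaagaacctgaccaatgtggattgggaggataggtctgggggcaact
Grin2b A_51_P265765: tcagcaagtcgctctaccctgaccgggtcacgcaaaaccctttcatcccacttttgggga
Grin2a was read by 2 probes 414 kb apart, A_51_P460570 (chr16:9577909-9577968) and A_52_P62744 (chr16:9991772-9991831), and the latter belongs to another transcript model, ENSMUST00000156482. The first 30 bases of the latter and those of the GC-rich Grin2d probe (chr7:53088243-53088302, 81.7% GC) are given to show how different the oligonucleotides are.
Grin2a A_52_P62744: tctccacttttctctcttcggtaaagtgat
Grin2d A_51_P157154: ctcaccgggccctcgcgccacgcgcgccgc
Because oligonucleotides hybridize with different efficiency, the subunits are not ranked by abundance, and levels of different probes serve only to pick the brightest probe of a gene where 1 value was needed.

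Over all 8 arrays, none of the 6 subunits was called different between BTBR and B6. Within slide 1 alone, 1 of 11 probes was, against 8.66% of all tested probes, and that call was lost when any of 3 arrays was left out. Of the 13 probes, 11 were well above background on at least 75% of the arrays of 1 strain and were tested, and those 11 cover all 6 genes. Limma called 0 of them at a Benjamini-Hochberg adjusted p under 0.05, against 2129 of 27982 probes (7.61%) over the whole array, and 0 had an unadjusted p under 0.05. The rank product, the test of the study's methods, called 0 at a percentage of false prediction (pfp) of 0.05 or less, against 3.9% of all tested probes. At 0 of the 11 probes did the 4 BTBR arrays lie wholly above or below the 4 B6 arrays, which was so at 14.2% of all tested probes. The median size of the difference was 0.10 on the log2 scale over the subunit probes and 0.10 over all probes. In whole tissue, fewer cells of a type and less RNA per cell cannot be told apart.

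**Figure D1:**
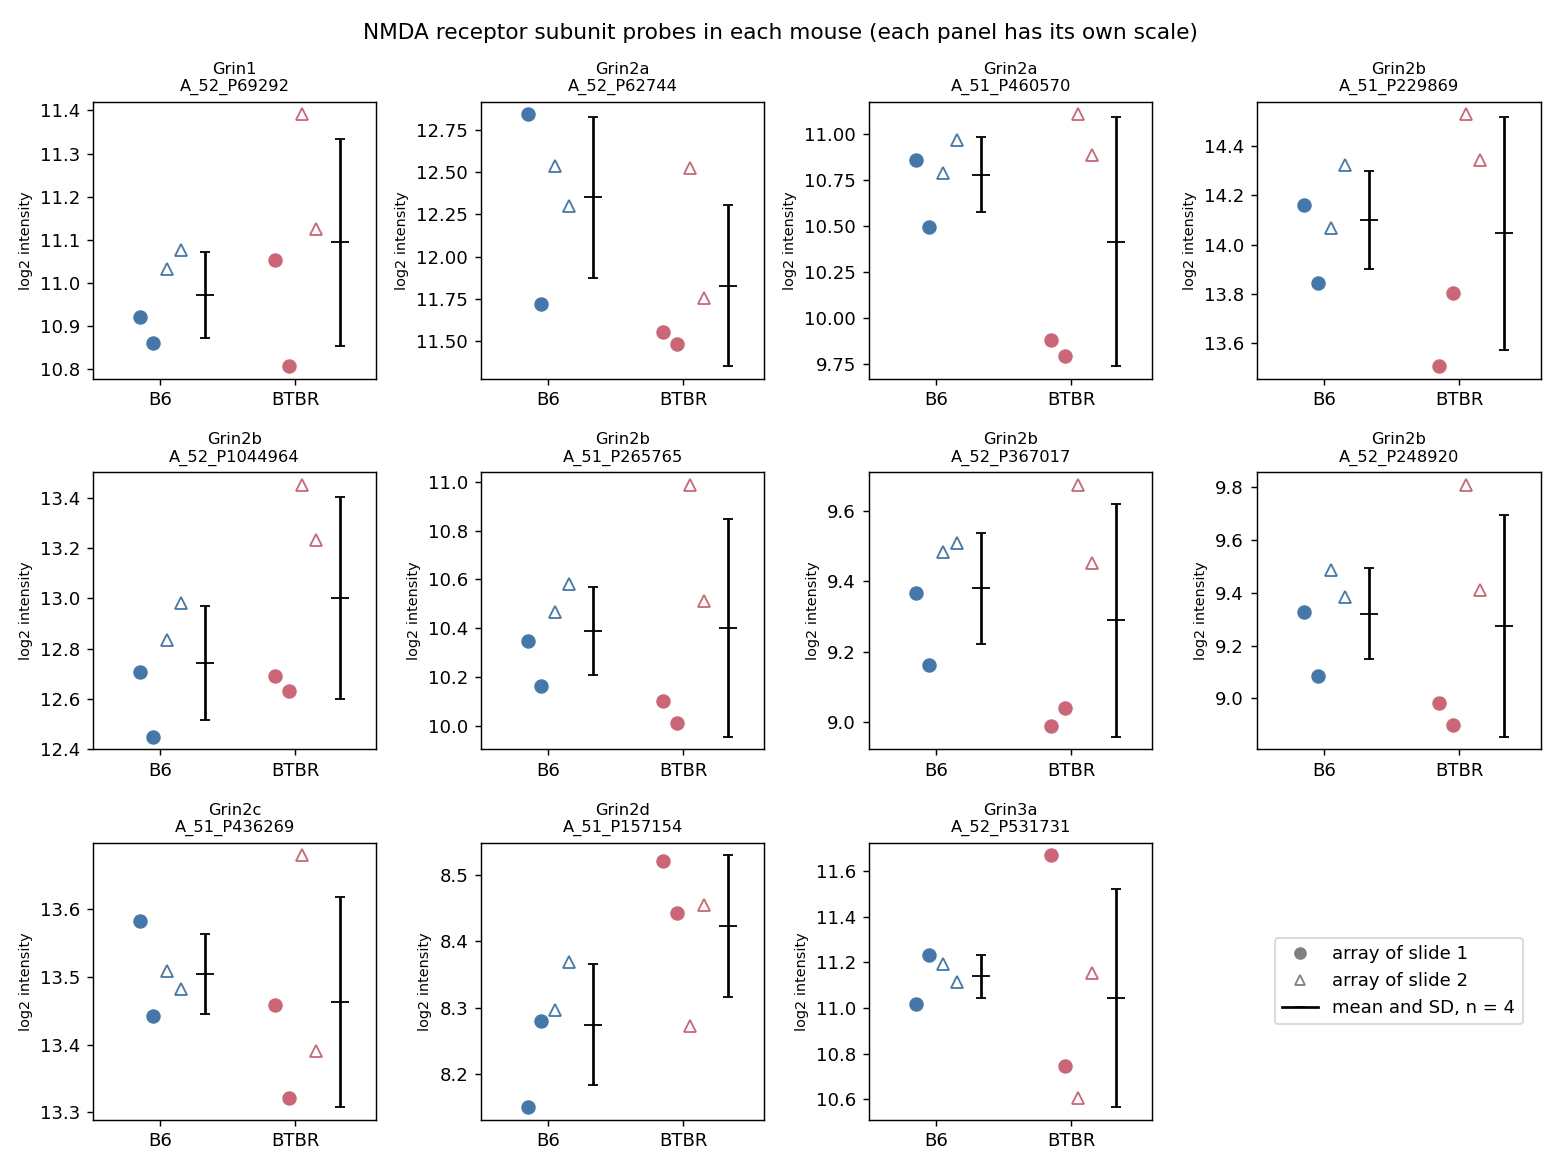
Normalized log2 intensity of the 11 tested subunit probes in each of the 8 mice, with a separate scale for each probe. Filled circles are arrays of slide 1, open triangles arrays of slide 2, and bars give mean and SD (n = 4 per strain). In every panel the values of the strains overlap, and the SD of BTBR is the larger, though nearly equal to that of B6 at Grin2a A_52_P62744.

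Grin1 encodes the subunit that every NMDA receptor contains. Its log2 intensity was 10.92, 10.86, 11.03 and 11.08 in B6 1 to 4 and 11.05, 10.81, 11.39 and 11.13 in BTBR 1 to 4. BTBR held both the lowest and the highest array. B6 averaged 10.97 ± 0.10 and BTBR averaged 11.09 ± 0.24 (SD, n = 4 each). The difference of 0.12 ± 0.12 (SE) had an adjusted p of 0.667 with limma, and its 95% interval runs from 0.90-fold to 1.31-fold. It was 0.023 without BTBR 3 and 0.22 without BTBR 2.

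Grin2a encodes GluN2A, the GluN2 subunit that predominates with GluN2B in the adult hippocampus. At A_52_P62744 the intensity was 12.84, 11.72, 12.54 and 12.30 in B6 and 11.55, 11.48, 12.52 and 11.75 in BTBR. Here 3 of the BTBR arrays lay near the lowest B6 array, B6 2, and BTBR 3 lay among the other B6 arrays. The difference of -0.52 ± 0.28 (SE) was the largest in size among the subunits, with limma adjusted p = 0.382, an exact permutation p of 0.20 (two-sided) and a rank product pfp of 0.142. Its 95% interval runs from 0.45-fold to 1.08-fold. Without BTBR 3 the rank product called this probe lower in BTBR, with a pfp of 0.0412, and limma did not.

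At the second Grin2a probe, A_51_P460570, the intensity was 10.86, 10.49, 10.79 and 10.97 in B6. In BTBR it was 9.88 and 9.79 on slide 1 and 11.11 and 10.88 on slide 2. The BTBR arrays thus formed a low pair and a high pair, and the high pair lay within or above the B6 values. Over all arrays the difference was -0.36 ± 0.30 (SE), with limma adjusted p = 0.595 and an interval from 0.49-fold to 1.24-fold. It ran from -0.59 without BTBR 3 to -0.16 without BTBR 2. The SD of 0.68 in BTBR compares with 0.20 in B6 (n = 4 each).

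Grin2b encodes GluN2B, the subunit that binds CaMKII most strongly, and 5 probes read it. They lie in 2 clusters on chromosome 6, and the outermost of them start 443 kb apart. The first cluster has 2 probes. At A_51_P229869 (chr6:136122961-136123020), the intensity was 14.16, 13.84, 14.07 and 14.32 in B6 and 13.51, 13.80, 14.53 and 14.34 in BTBR. At A_52_P367017 (chr6:136121705-136121764) it was 9.37, 9.16, 9.48 and 9.51 in B6 and 8.99, 9.04, 9.67 and 9.45 in BTBR. At both probes BTBR 1 and BTBR 2 lay below all B6 arrays and BTBR 3 lay above them.

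In the other cluster, all 3 probes were lowest in BTBR 2 and highest in BTBR 3 among the BTBR arrays. At A_52_P248920 the intensity was 9.33, 9.08, 9.49 and 9.38 in B6 and 8.98, 8.90, 9.81 and 9.41 in BTBR. At A_51_P265765 it was 10.35, 10.16, 10.47 and 10.58 in B6 and 10.10, 10.01, 10.99 and 10.51 in BTBR. At A_52_P1044964 (chr6:135681653-135681712) it was 12.71, 12.45, 12.84 and 12.98 in B6 and 12.69, 12.63, 13.45 and 13.23 in BTBR. The strain differences of the 5 probes were -0.05, -0.09, -0.05, 0.01 and 0.26 in the order given. The last was the largest, with an SE of 0.20, limma adjusted p = 0.565 and an interval from 0.88-fold to 1.63-fold, and it was 0.11 without BTBR 3. The others had adjusted p between 0.826 and 0.984, and all 5 read the same RNA samples, so they do not count as separate evidence.

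Grin2c encodes GluN2C, best known from cerebellar granule cells, and was read at chr11:115110671-115110730. Its intensity was 13.58, 13.44, 13.51 and 13.48 in B6 and 13.46, 13.32, 13.68 and 13.39 in BTBR. The arrays of both strains overlapped, and the difference was -0.04 ± 0.08 (SE) with limma adjusted p = 0.857. Its interval, from 0.85-fold to 1.11-fold, was among the narrowest of the subunits.

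Grin2d encodes GluN2D, which in the adult hippocampus is known mainly from interneurons. Its intensity was 8.15, 8.28, 8.30 and 8.37 in B6 and 8.52, 8.44, 8.27 and 8.45 in BTBR, and 1 of the B6 arrays was not well above background. All BTBR arrays except BTBR 3 lay above the highest B6 array. The difference of 0.15 ± 0.08 (SE) had a limma adjusted p of 0.356 and an exact permutation p of 0.114 (two-sided), the smallest of both among the subunits. The interval runs from 0.98-fold to 1.25-fold. With the scanner software's processed signal the difference was 0.45 (adjusted p = 0.125), above that interval.

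Grin3a encodes GluN3A, a glycine-binding subunit that lowers calcium permeability. At A_52_P531731 (chr4:49674688-49674747) its intensity was 11.02, 11.23, 11.19 and 11.11 in B6 and 11.67, 10.75, 10.60 and 11.15 in BTBR. BTBR 1 was the highest array and BTBR 2 and BTBR 3 were the lowest, around a narrow B6 group. The difference was -0.10 ± 0.21 (SE) with limma adjusted p = 0.863 and an interval from 0.68-fold to 1.30-fold. It was -0.30 without BTBR 1, 0.0030 without BTBR 2 and 0.050 without BTBR 3. The other Grin3a probes, at chr4:49783197-49783256 and chr4:49717981-49718040, were not well above background on any of the 8 arrays and were not tested. They belong to other transcript models than the tested probe.

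**Figure D2:**
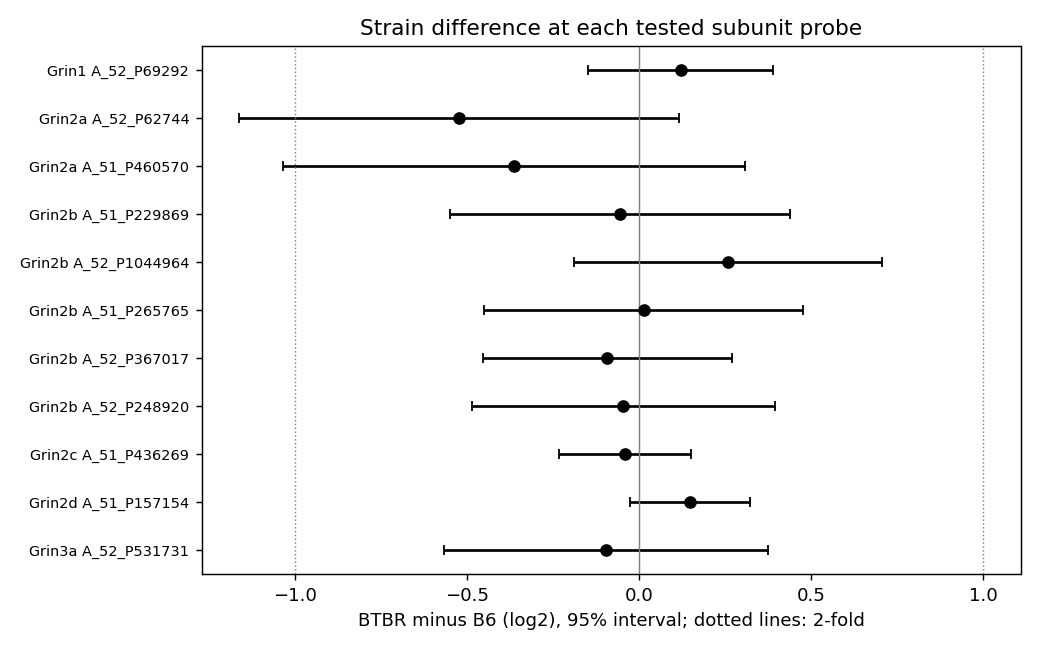
BTBR minus B6 difference in log2 intensity of each tested subunit probe, with its 95% interval from limma. Each interval includes 0, and 9 of 11 lie within a 2-fold change in either direction, the exceptions being both Grin2a probes.

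The subunits varied more from mouse to mouse than most probes did. Their median SD within strains was 0.33 against 0.13 over all tested probes, and 9 of 11 lay above that median, the exceptions being Grin2c and Grin2d. The SD was larger in BTBR than in B6 at 11 of 11 subunit probes and at 66.7% of all tested probes. At Grin2a A_52_P62744 the SDs were nearly equal, 0.477 in BTBR and 0.475 in B6. The highest of the 8 arrays was BTBR 3 at 8 of 11 subunit probes, against 15.6% over the array, and the lowest was BTBR 2 at 6 of 11, against 16.2%. These 11 probes are not independent, since 7 of them read Grin2a or Grin2b.

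At all 7 Grin2a and Grin2b probes, both BTBR arrays of slide 1 lay below both BTBR arrays of slide 2. The same order held at 26.1% of all tested probes. In B6 it held at 4 of the 7, against 22.1% of all tested probes. Limma, fitted with strain, slide and their interaction, called the slide difference within BTBR at 2 of 11 subunit probes, against 2.02% of all tested probes, and within B6 at 0, against 0.0%. The 2 were Grin2a A_51_P460570, higher on slide 2 by 1.16 (adjusted p = 0.0302), and Grin2b A_52_P1044964, higher by 0.68 (adjusted p = 0.0479). Each rests on 2 mice per slide.

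The strain difference was also taken within each slide, for all tested probes. On slide 1, limma called 1 of 11 subunit probes, against 8.66% of all tested probes. This was Grin2a A_51_P460570, at -0.84 with an adjusted p of 0.0168, and the 2 BTBR values of 9.88 and 9.79 lay below the 2 B6 values of 10.86 and 10.49. On slide 2 limma called 0 of 11, against 3.7%, and the same probe differed by 0.12 (adjusted p = 0.861). The difference between these 2 values, 0.96, had an unadjusted p of 0.00226 and an adjusted p of 0.401 with limma, and the interaction was called at 0 of 11 subunit probes and at 0.0% of all tested probes. The call on slide 1 was lost when B6 1, BTBR 1 or BTBR 2 was left out, with -0.66, -0.88 and -0.80 and adjusted p of 0.0794, 0.0628 and 0.0795. In these fits the single array left in its strain and slide was taken to vary like the others.

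**Figure D3:**
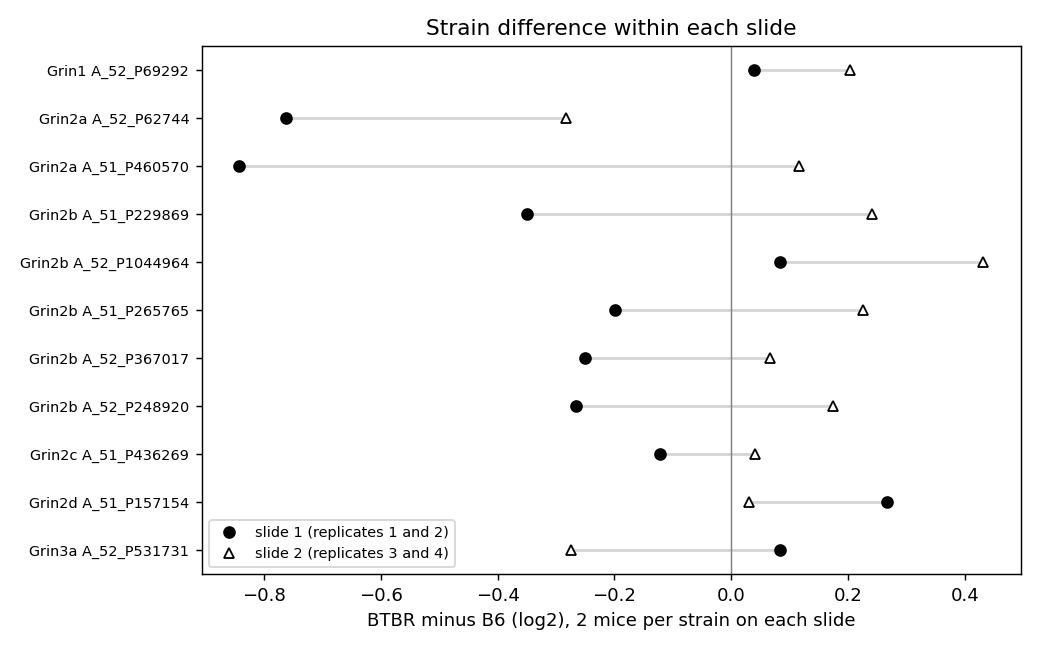
BTBR minus B6 difference in log2 intensity within slide 1 (circles) and within slide 2 (triangles), 2 mice per strain on each, for the 11 tested subunit probes. The value is below 0 at 7 probes on slide 1 and at 2 on slide 2, and Grin2a A_51_P460570 has the widest gap.

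Markers of hippocampal subfields and of neighboring tissue moved between the same arrays. The median of 7 CA1 markers, as a deviation from the mean of the 8 arrays, was -0.53 and -0.51 in BTBR 1 and BTBR 2 and 0.43 and 0.39 in BTBR 3 and BTBR 4. In B6 it ran from -0.06 to 0.31. The corresponding medians over the tested probes of a gene in BTBR 1 to 4 were -0.63, -0.71, 0.47 and -0.03 for Grin2a and -0.32, -0.29, 0.51 and 0.12 for Grin2b. CA1 pyramidal cells are among the cells that express both genes strongly. The median of 8 dentate gyrus markers was lowest in BTBR 2 at -1.07, followed by BTBR 1 at -0.47, and highest in B6 1 at 0.70, the array in which Grin2a A_52_P62744 was highest. The median of 7 CA3 markers was lowest in BTBR 2 at -0.48 and highest in B6 4 at 0.56.

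Thalamic markers moved the other way. The median of 10 such markers was 2.62 above the mean in BTBR 1 and 0.20 above it in BTBR 2, and between -0.22 and -0.48 in the other 6 arrays. All 10 were highest in BTBR 1, the array in which Grin3a was highest. In BTBR 2, however, Grin3a deviated by -0.34 from its mean. Oligodendrocyte markers were 0.26 and 0.55 in BTBR 1 and BTBR 2, and -0.11 and -0.39 in BTBR 3 and BTBR 4. Choroid plexus markers were 1.15 and 1.11 in BTBR 1 and BTBR 2, and -0.72 and -0.75 in BTBR 3 and BTBR 4. In B6 1 to 4 they were -0.49, 0.49, 0.31 and -0.79, so that B6 also varied widely, and within each slide. Oligodendrocyte markers stayed between -0.14 and 0.07 in B6. The part of these tissue differences in the values of the subunits was not tested.

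**Figure D4:**
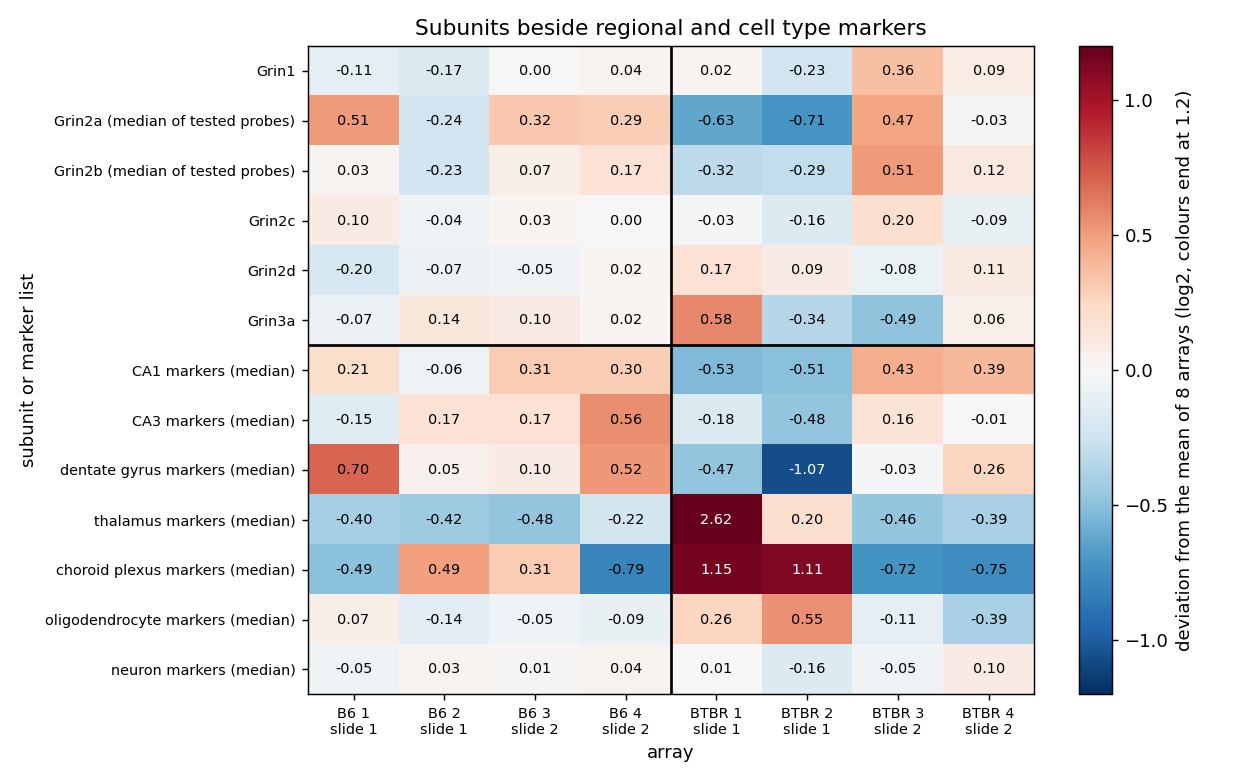
Deviation of each array from the mean of the 8 arrays on the log2 scale, for the 6 subunits and for the medians of 7 marker lists. BTBR 1 and BTBR 2 are low for Grin2a, Grin2b and the CA1 markers and high for the choroid plexus markers. BTBR 1 is high for Grin3a and the thalamus markers, while BTBR 2 is low for Grin3a but not for the thalamus markers.

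Without BTBR 1 and BTBR 2, which was chosen after the markers were seen, limma again called 0 of the subunit probes. BTBR was then on slide 2 only and B6 on both slides, so these values mix strain with slide. Grin2a A_51_P460570 then differed by 0.22 instead of -0.36, and Grin2b A_51_P229869 by 0.34 instead of -0.05. The other Grin2a probe, A_52_P62744, stayed lower, at -0.21. Grin2b A_52_P1044964 came nearest to a call, at 0.60 with an adjusted p of 0.073 (limma). Within slide 2, these probes differed by 0.12, 0.24, -0.28 and 0.43, in the order given. Between strains, limma called 0 of the tested members of the CA1, CA3, dentate gyrus, thalamus, interneuron, oligodendrocyte, choroid plexus and cerebellum lists. The median differences were -0.41 for CA1, -0.54 for CA3, -0.60 for the dentate gyrus, 0.72 for thalamus, 0.03 for interneurons, 0.09 for oligodendrocytes, 0.40 for choroid plexus and 0.0027 for cerebellum. The cerebellar genes Cbln3 and Gabra6 did not pass the filter on dim probes. Among 10 neuronal markers only Nefl was called, lower, and their median difference was -0.0046. Astrocytes had 1 of 10 called (Gfap, lower), and microglia had 1 called higher and 3 lower of 10, with median differences of -0.11 and -0.12. These are shares of 10% and 40%, against 7.8% of all genes, and the microglial share is the largest of the 11 marker lists. The part of microglia in the values of the subunits was not tested. Prox1 and Calb1 of the dentate gyrus and Wfs1 of CA1 passed the filter on dim probes, as did every other member of the hippocampal subfield lists.

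The mouse-to-mouse pattern of Grin2a A_52_P62744, the widest among the subunits' brightest probes with an SD of 0.52 over 8 arrays, was matched against all other genes. After centering each on its mean, the smallest root mean square differences from it were those of Phxr4 (0.11), Fam135b (0.12) and 2310067E19Rik (0.16). All 3 were high in B6 1 and low in B6 2, as Grin2a was. The fits of strain gave -0.36 for Phxr4, -0.42 for Fam135b and -0.34 for 2310067E19Rik, with limma adjusted p of 0.555, 0.354 and 0.633. The 8 arrays share these points, and the likeness is a description.

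Proteins that anchor, modify or feed the receptor were taken as 3 lists, the first of which also holds the subunit gene Grin3b, with 1 value for each gene from its brightest tested probe. Over all genes, 643 of 18399 were called higher and 796 lower by limma (7.8%). Of the scaffolds and trafficking partners, 35 of 36 were tested, and 1 was called higher and 2 lower in BTBR, with a median difference of 0.04 against 0.01 over all genes. Of the kinases, phosphatases and signaling proteins, 50 of 53 were tested, with 2 called higher, 1 lower and a median of 0.01. Of the genes for co-agonist synthesis, breakdown and transport, 19 of 22 were tested, with 1 called higher, 0 lower and a median of 0.07. The shares of 8.6%, 6% and 5.3% were near that of all genes.

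Shank3, a scaffold of the postsynaptic density, rose by 0.65 (adjusted p = 0.0012), from 14.24 ± 0.07 in B6 to 14.88 ± 0.14 in BTBR (SD, n = 4, limma). Dlgap4, which links PSD-95 to Shank proteins, fell by 0.38 (limma adjusted p = 0.00611), and its second probe gave -0.22. Under the processed signal it gave -0.40 and was no longer called (adjusted p = 0.0516). Nefl, the light neurofilament that binds GluN1, fell by 0.65 (limma adjusted p = 0.00281), and its second probe gave -1.93.

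Prkar1a, a regulatory subunit of protein kinase A, rose by 1.69, from 12.20 ± 0.05 in B6 to 13.89 ± 0.11 in BTBR (SD, n = 4, limma adjusted p = 1.1e-06). Slc1a5, a neutral amino acid exchanger that carries serine, rose by 1.28, from 9.69 ± 0.23 to 10.97 ± 0.21 (SD, n = 4, limma adjusted p = 0.000447). Calm3, a calmodulin gene, rose by 0.51 (limma adjusted p = 0.0379), while its other probes gave 0.44 and -0.16. Ppp1cb, a catalytic subunit of protein phosphatase 1, fell by 0.44 (limma adjusted p = 0.0255). Shank3, Prkar1a, Slc1a5 and Ppp1cb each had 1 tested probe. Whether BTBR alleles within the probed sequences altered the signal, here or at the subunits, was not tested. For all 7 called partners the strains did not overlap, which was so at 14.2% of all tested probes. Exact permutation gave a two-sided p of 0.0286 for each, the smallest that 4 against 4 arrays allow. Because limma picked the 7 on these same arrays, neither is separate evidence. The call of Calm3 was lost without B6 1, B6 2, B6 3, BTBR 1, BTBR 3 or BTBR 4, and that of Ppp1cb without B6 1, B6 2, B6 4 or BTBR 2. In those fits the differences ran from 0.42 to 0.53 for Calm3 and from -0.44 to -0.40 for Ppp1cb. Both calls were also lost under the processed signal (limma adjusted p = 0.177 and 0.0936). Grin3b, the remaining GluN3 gene, averaged 8.54 ± 0.15 (SD) against 8.74 ± 0.38 in BTBR (n = 4 each) and was not called (limma adjusted p = 0.644).

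**Figure D5:**
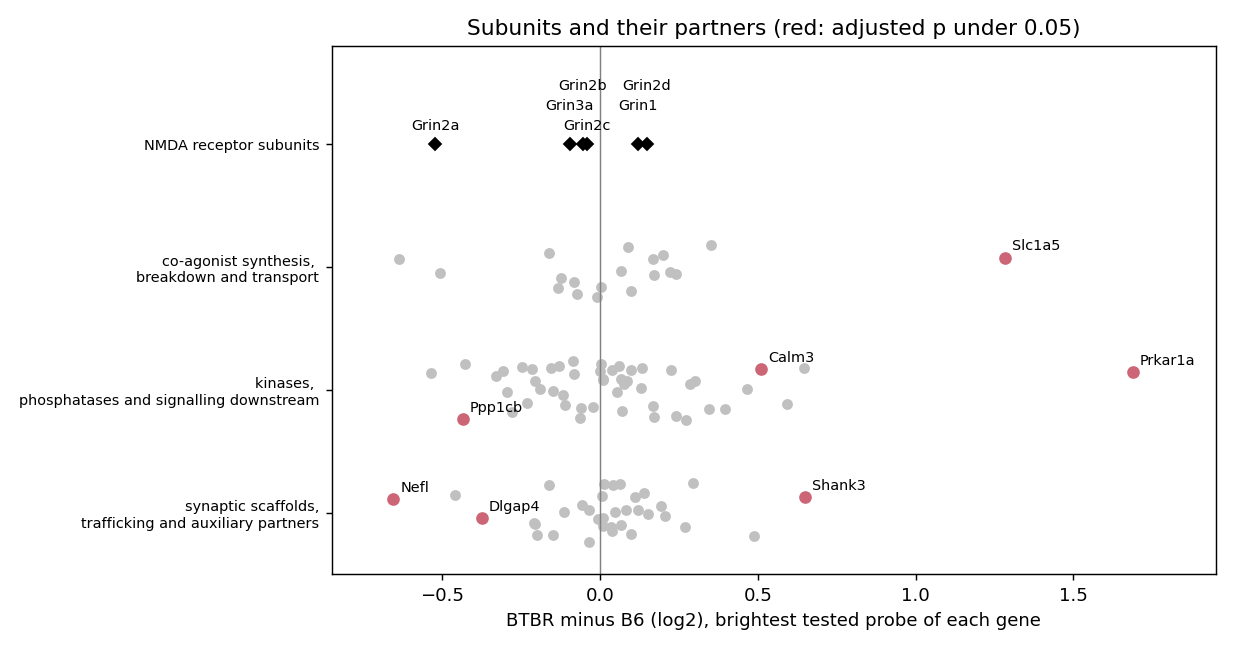
BTBR minus B6 difference in log2 intensity for the brightest tested probe of each gene, with the 6 subunits (diamonds) above 3 lists of partners (circles, shifted at random in height). The 7 partners called by limma are in red and named, and Prkar1a and Slc1a5 lie farthest to the right.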

How the data were processed

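Hippocampal RNA of 4 BTBR and 4 B6 mice was grouped by the strain in the titles. Their strain background field reads C57BL/6J in the BTBR samples too, against title and source. The intensity values were deposited by the authors as read by the scanner software, Agilent Feature Extraction, whose version is 10.7.3.1 per the file headers and 9.1 per the submitters' processing notes. The log2 matrix was made by the authors with Agi4x44PreProcess (quantile scaling, replicate spots by their median) and served as an alternative.

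Here local background was subtracted from mean intensity (minimum 0.5), 50 was added to each value, and the logarithms (log2) were brought to 1 distribution by quantiles. Control probes and 154 outlier-flagged probes were left out, as were probes well above background on fewer than 75% of the arrays of each strain. Well above background were 56.8% to 71.9% of non-control probes per array, and 0 of the 13 subunit probes were saturated. The number of arrays limits the precision.

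R 4.3.3 with limma 3.58.1 and data.table (1.17.8), and Python 3.11.15 with NumPy 2.4.6, SciPy 1.17.1, pandas 2.3.3 and matplotlib 3.10.9, were used. Limma fitted strain, and strain with slide and interaction, with adjustment over all probes. The rank product used 16 array pairs and 100 permutations. On simulated strain differences over 27982 probes, limma recovered 43 of 100 changes of 0.5 and 87 of 100 of 1, with 7 false calls. The changed probes were drawn at random from all tested probes, whose median SD was 0.13. The subunit probes had a median SD of 0.33, so these figures do not give the recovery at the subunits. Single probes had an exact permutation test over 70 assignments.

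Members, lists and tests were chosen with earlier results of these data known. Named were all subunits, the called partners with the smallest p (up to 5 for each list), the 3 genes nearest to the most variable subunit, and markers that check the tissue. The lists were 3 of partners and 11 of markers (neuron, interneuron, astrocyte, oligodendrocyte, microglia, dentate gyrus, CA1, CA3, thalamus, cerebellum, choroid plexus), written from general knowledge. Listed partners without a probe of that name were not tested, and some items are not reported here. Exon and UTR annotation of mm9 and protein sequences were not used here. Alternatives were other background corrections, scalings, filters, blocks and each array left out.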

Additional observations from a re-analysis of the deposited data

How the results depend on the processing

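Limma called 0 subunit probes under every alternative run, and the interaction of strain and slide likewise. Over 219 pairs of subunit probe and alternative, the sign was kept in 199 and turned in 20, the smallest adjusted p was 0.073, and 4 of 11 probes kept their sign throughout (Grin1, Grin2a A_52_P62744, Grin2b A_52_P1044964 and Grin2d). Changed filters, blocks and limma options cannot alter the estimates, so the sign was fixed in advance in those pairs. The rank product called 0 to 1 with each array left out in turn, the 1 without BTBR 3. Median centring turned Grin2b A_51_P265765 to -0.0095, and the median over the probes of Grin2b gave 0.014 in place of -0.05 at the brightest. Without BTBR 1 and BTBR 2, BTBR was on slide 2 only and B6 on both slides, so strain and slide are mixed. In that fit Grin2b A_52_P1044964 was at 0.60 (limma adjusted p 0.073). The differences turned at Grin2a A_51_P460570 (0.22), Grin2b A_51_P229869 (0.34), A_52_P367017 (0.18) and A_52_P248920 (0.29), and Grin2c (0.032). With each array left out in turn, Grin2b A_51_P229869 ran from -0.22 to 0.13, Grin2b A_51_P265765 ran from -0.18 to 0.14, Grin2b A_52_P248920 ran from -0.22 to 0.080, Grin2b A_52_P367017 ran from -0.22 to 0.0082, Grin2c A_51_P436269 ran from -0.11 to 0.0058, Grin3a A_52_P531731 ran from -0.30 to 0.050. Among the 4 probes that kept their sign, Grin1 ran from 0.023 to 0.22, Grin2a A_52_P62744 from -0.75 to -0.36, Grin2b A_52_P1044964 from 0.11 to 0.38 and Grin2d from 0.11 to 0.20, and Grin2a A_51_P460570 ran from -0.59 to -0.16. The processed signal moved Grin2d from 0.15 to 0.45 (adjusted p 0.125). The cause was not tested. The partner count of 7 ran from 5 to 8. Same-numbered arrays correlated between -0.142 and 0.51, so the numbers are not taken to pair the samples, and with the replicate block limma called 0 subunit probes and 5 partners, without Calm3 and Ppp1cb (adjusted p 0.0765 and 0.0874). Calm3 was also lost under median centring (adjusted p 0.117), Ppp1cb without BTBR 1 and BTBR 2 (0.112), and both with Dlgap4 under the processed signal (0.177, 0.0936 and 0.0516). With 4 arrays per strain, changes of 0.5 on the log2 scale were often missed on simulated data. Those changes were set at probes drawn from the whole array, and most subunit probes varied more than the median of these.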
